A study of Mus musculus with 8 samples.

Results

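The calcitonin peptides and the receptors that bind them are described here in cancers of the mouse gastric squamous-columnar junction (SCJ), the border between the squamous forestomach and the glandular stomach. The group was defined by gene symbol and holds 9 of the 23361 genes measured: the peptide genes Calca, Calcb, Adm and Iapp, the receptors Calcr and Calcrl, and the receptor activity modifying proteins (RAMPs) Ramp1, Ramp2 and Ramp3. RNA was sequenced from 5 cancers of the SCJ labelled Trp53-/-Rb1-/- and from SCJ tissue of 3 wild type mice. Per the study's methods, the cancers arose in tamoxifen-treated mice that carried an inducible Cre knocked into the Lgr5 gene (Lgr5-eGFP-Ires-CreERT2), the Ai9 tdTomato reporter, and floxed alleles of both tumour suppressors (Trp53 loxP/loxP and Rb1 loxP/loxP), so that Cre acted in cells expressing Lgr5. Tumour borders were set by tdTomato, and each sample is bulk tissue that can hold host stroma. The control mice were age-paired and carried none of these alleles per their label. The methods describe tamoxifen injection of control mice in the tumour induction experiments without saying whether those include the wild type mice sequenced here. Cancers and controls differed in the transgenes as well as in the deleted genes. The controls are 3 stomachs per the study's methods. The sources used here do not state whether the 5 cancers came from 5 mice, so the spread between cancers may in part be that within a mouse.

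The 9 genes form a small signalling family. Calca encodes both calcitonin, a hormone of thyroid C cells, and calcitonin gene-related peptide (CGRP), a vasodilator peptide of sensory neurons, through alternative splicing, and Calcb encodes a second CGRP. Adm encodes adrenomedullin, a vasodilator peptide, and Iapp encodes amylin, which pancreatic beta cells release with insulin. Calcr and Calcrl are receptors coupled to the G protein Gs, and a RAMP bound to either one sets which peptide it prefers. Calcrl with Ramp1 forms the CGRP receptor, Calcrl with Ramp2 or Ramp3 forms adrenomedullin receptors, Calcr alone is the calcitonin receptor, and Calcr with a RAMP is an amylin receptor. In normal stomach, CGRP is known mainly from nerve fibres, and calcitonin and CGRP are also known as products of neuroendocrine tumours.

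Values are FPKM, read fragments scaled to transcript length and to library size, which the authors deposited as whole numbers. A value of 1 therefore stands for anything from 0.5 up to 1.5. Because FPKM is per transcript length, levels of different genes within a sample are set side by side below. The estimate of a single gene can fail, which limits such comparisons and the shares built on them. Of 79 cytosolic ribosomal protein genes, 3 were listed at 0 in all samples, and the ribosomal protein gene Rpl26 was at 0 to 9 FPKM. Values of the 9 genes in these groups were known when the group was chosen, so their contrast is a description without a test. Genes outside the group were tested with limma on log2(FPKM + 1), with p-values adjusted over all 14357 genes tested.

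The sequence before the start of transcription is shown for the peptide gene and the receptor gene that were listed at 0 in every control and reached the highest levels in single cancers (Calca and Calcr), and for the RAMP genes whose cancer and control values did not overlap (Ramp1 and Ramp3). Each window runs 5′ to 3′ on the strand of the gene, from 250 bases before to 50 bases after a RefSeq start site in GRCm38.p6. RefSeq entries were matched for 7 of the 9 genes (Calcb and Ramp2 were not matched), and Calcr had entries for an outer and an inner start site. GENCODE also lists coding Calcr transcripts that start further downstream, at chr6:3752974, for which no window is shown. The windows are chr7:114636308-114636607 on the minus strand for Calca, chr6:3764664-3764963 and chr6:3763574-3763873 on the minus strand for Calcr, chr1:91179572-91179871 on the plus strand for Ramp1 and chr11:6658283-6658582 on the plus strand for Ramp3. Capitals mark matches to any of the short motifs described next.
Calca: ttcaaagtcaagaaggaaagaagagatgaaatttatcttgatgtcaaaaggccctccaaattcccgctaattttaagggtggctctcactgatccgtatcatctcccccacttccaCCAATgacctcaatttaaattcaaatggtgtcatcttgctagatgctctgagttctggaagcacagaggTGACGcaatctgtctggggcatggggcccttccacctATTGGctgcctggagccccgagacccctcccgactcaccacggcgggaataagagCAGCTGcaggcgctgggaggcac
Calcr, outer start site: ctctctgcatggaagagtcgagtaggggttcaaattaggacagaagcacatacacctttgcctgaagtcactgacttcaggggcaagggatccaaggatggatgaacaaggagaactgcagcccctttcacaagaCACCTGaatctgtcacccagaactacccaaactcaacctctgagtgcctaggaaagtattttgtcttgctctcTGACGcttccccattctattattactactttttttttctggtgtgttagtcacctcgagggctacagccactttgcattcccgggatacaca
Calcr, inner start site: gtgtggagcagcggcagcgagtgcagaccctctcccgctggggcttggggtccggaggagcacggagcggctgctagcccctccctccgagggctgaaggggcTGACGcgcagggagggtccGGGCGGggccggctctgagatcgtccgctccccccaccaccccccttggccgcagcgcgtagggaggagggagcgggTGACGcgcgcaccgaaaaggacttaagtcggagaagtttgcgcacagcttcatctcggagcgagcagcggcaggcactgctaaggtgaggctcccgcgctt
Ramp1: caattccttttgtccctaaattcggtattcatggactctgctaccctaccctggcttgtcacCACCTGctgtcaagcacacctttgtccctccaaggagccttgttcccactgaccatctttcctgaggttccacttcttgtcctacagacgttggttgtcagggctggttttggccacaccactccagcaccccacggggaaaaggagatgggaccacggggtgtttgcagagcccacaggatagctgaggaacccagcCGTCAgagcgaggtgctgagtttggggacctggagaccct
Ramp3: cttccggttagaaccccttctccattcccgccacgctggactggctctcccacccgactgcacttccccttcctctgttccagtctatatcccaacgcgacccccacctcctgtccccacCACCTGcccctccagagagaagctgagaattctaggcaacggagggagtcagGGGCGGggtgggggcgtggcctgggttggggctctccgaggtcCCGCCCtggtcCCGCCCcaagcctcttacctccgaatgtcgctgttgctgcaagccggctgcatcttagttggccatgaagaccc

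The motifs were the cAMP response element TGACGTCA, its shorter form TGACG (contained in the first), the E-boxes CAGCTG and CAGGTG, the GC box GGGCGG, the CCAAT box CCAAT and the hypoxia response core ACGTG, each searched on both strands. The Calca window held TGACG 65 bases before the start site, CCAAT at positions -134 and, on the reverse strand, -28, and CAGCTG at position 28. CAGCTG occurred in 16.3% of 32851 promoter windows of the same length. These windows do not cover every chromosome and are called all windows below. TGACG was found in both Calcr windows, at position -42 of the outer and at positions -147 and -51 of the inner one, and in the Ramp1 window on the reverse strand at position 11. It occurred in 20.8% of all promoter windows. CAGGTG, present in 20.2% of all windows, was found on the reverse strand in the windows of Ramp1 (position -188), Ramp3 (position -130) and the outer start site of Calcr (position -115). Ramp3 held GGGCGG at position -78 and, on the reverse strand, at -35 and -24, and the inner Calcr window held it at position -128. GGGCGG was present in 35.7% and CCAAT in 37.4% of all windows. Neither TGACGTCA (1.79% of all windows) nor ACGTG (19.6%) was found in any of the 8 windows matched to the 9 genes. A match of letters is a description of the window and not a binding site.

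The samples differed in ways that bear on these values. Summed FPKM lay between 403569 and 573858 in the cancers and between 887141 and 992550 in the controls, in which the 10 highest genes took 39.3% to 44.3% of the sum compared with 11.1% to 19.6% in the cancers. Sequencing depth is unknown from normalized values. Rb1 was at 4 to 6 FPKM in the cancers and 9 to 10 in the controls, while Trp53 was at 12 to 30 and 16 to 19, and a gene-level value does not show a deletion of some exons. Gastric gland markers summed to 692 to 71685 FPKM in the cancers and 156314 to 237038 in the controls, and the control tissue held both gland and squamous markers as the SCJ label implies. The gastric enzyme gene Pgc was listed at 28832, 0 and 0 FPKM in controls 1 to 3, so a listed 0 can be a failed estimate and is given below as "listed at 0". In bulk tissue, fewer cells of a type and less RNA per cell cannot be told apart.

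Of the 9 genes, 8 passed the filter of 1 FPKM in at least 3 samples, and 3 of the 9 (Calca, Ramp1 and Ramp3) had higher values in every cancer than in any control. None was lower in every cancer. Among all genes tested, the groups of 34.1% did not overlap, 14.4% in the higher direction and 19.8% in the lower one. Because this contrast was in view when the genes were chosen, nothing is read from the share of the 9. The plot of the 9 genes by sample shows these values.

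**Figure D1:**
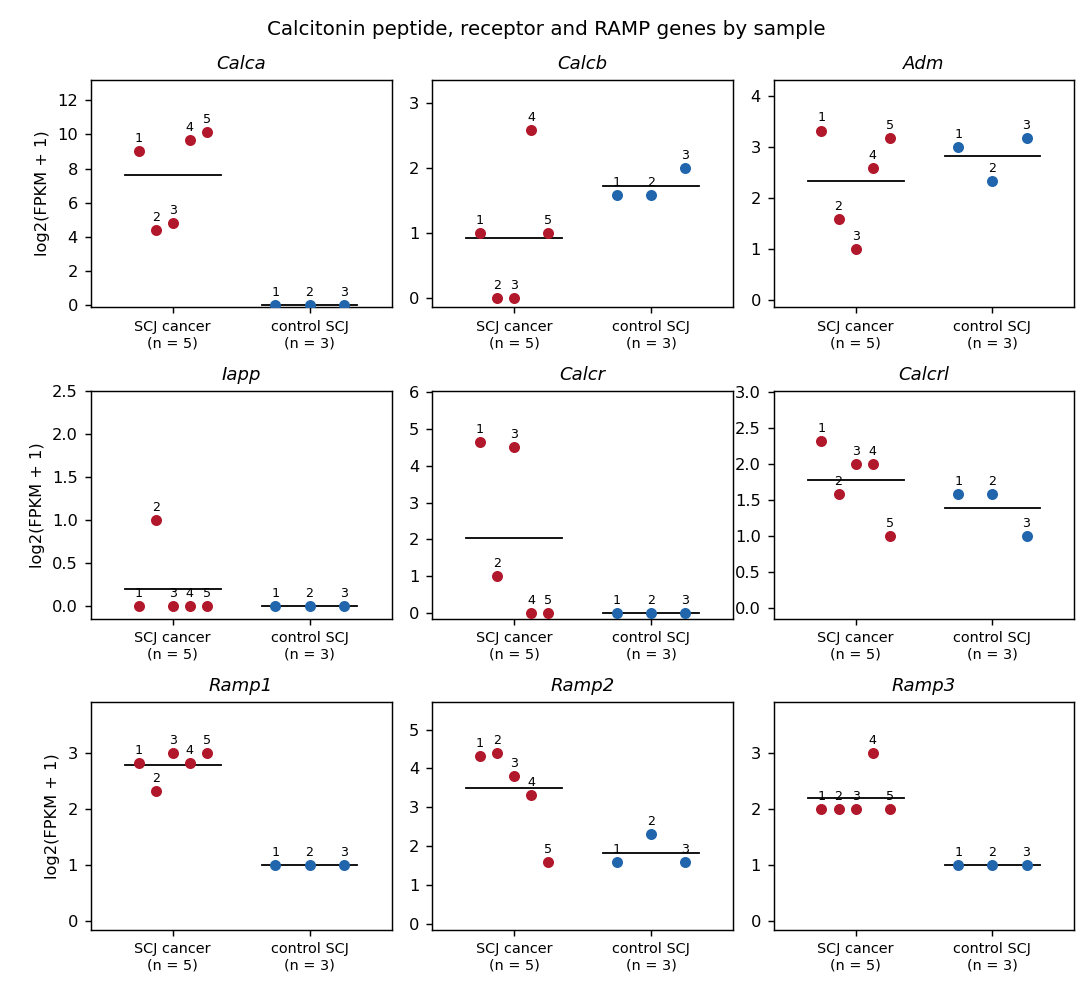
Each panel plots log2(FPKM + 1) of 1 gene (vertical axis, scaled separately for each gene) in the 5 SCJ cancers (red) and 3 control SCJ samples (blue), with the replicate number above each point and the group mean as a line. Calca lies at 0 in all controls and between 20 and 1144 FPKM in the cancers, and Ramp1 and Ramp3 also separate the groups. The groups overlap for Calcb, Adm, Iapp, Calcr, Calcrl and Ramp2.

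Among the peptide genes, Calca had by far the highest values. Calca (chr7:114631478-114636357, minus strand, mm10) was at 521, 20, 27, 829 and 1144 FPKM in cancers 1 to 5 and was listed at 0 in each of the 3 controls. Every cancer was above every control, but cancers 2 and 3 were far below cancers 1, 4 and 5. In cancer 5, Calca ranked 29th among the 23361 genes of the library, and it ranked 98th in cancer 1 and 112th in cancer 4. It ranked 3372nd in cancer 2 and 2373rd in cancer 3. The SD of log2(FPKM + 1) among the cancers was 2.79 for Calca, which was at or above that of 99.5% of the genes tested. No fold is given against controls listed at 0.

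The gene-level value does not separate calcitonin from CGRP. GENCODE lists 7 transcripts of Calca, 6 of them coding, and the splice forms end at different 3′ exons. Calca-201 has 5 exons and ends at chr7:114631478, and Calca-202 has 4 exons and ends at chr7:114633293. The deposited table holds 1 value for all of them. Regulators known to act on this splicing choice are given further on.

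Calcb, the gene of the second CGRP, did not follow its neighbour. Calcb (chr7:114718643-114723365, plus strand) starts 82286 bases from the start of Calca, which is transcribed in the opposite direction, and was at 1, 0, 0, 5 and 1 FPKM in the cancers and at 2, 2 and 3 in the controls. Cancer 4 alone was above the controls and the other 4 cancers were below them. The mean difference of log2(FPKM + 1), cancer minus control, was -0.81 ± 0.57 (SE, 5 cancers and 3 controls). Other genes close to Calca were looked at after the Calca values were seen, and 8 genes of the table lie within 500 kb of it. Of the 4 that are not in the group and were tested, none passed the test. Copb1, a coat protein of transport vesicles, and Psma1, a proteasome subunit, had adjusted p = 0.86 and 0.83 in limma. Pde3b, a cAMP phosphodiesterase, was at 50, 11, 22, 11 and 19 FPKM in the cancers and at 11, 12 and 9 in the controls (difference 0.80 ± 0.47 on the log2 scale, limma adjusted p = 0.20). Cyp2r1, a vitamin D hydroxylase, had a limma adjusted p = 0.56.

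Adm overlapped between the groups. Adm (chr7:110627669-110629819, plus strand) was at 9, 2, 1, 5 and 8 FPKM in the cancers and at 7, 4 and 8 in the controls. Cancers 2 and 3 had the lowest values, below all controls, and cancer 1 the highest. The mean difference was -0.50 ± 0.56 on the log2(FPKM + 1) scale, and it turned to 0.30 when values were rescaled to TPM, which also moved the median difference of all genes tested from -0.038 to 0.81. Adrenomedullin is a known target of hypoxia signalling, and the other hypoxia targets are given with the pathway lists.

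Iapp was close to absent from the table. It was listed at 1 FPKM in cancer 2 and at 0 in the other 7 samples, and it did not pass the filter. The locus given for Iapp in the deposited table spans 88755 bases (chr6:142234227-142322981) and overlaps the transporter gene Slco1a5, whereas the RefSeq gene spans 5396 bases. The single value therefore cannot be tied to Iapp. Among pancreatic islet markers, Ins1, Mafa and G6pc2 were listed at 0 in all 8 samples.

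Calca made up most of the peptide transcript signal in every cancer. Of the summed FPKM of Calca, Calcb, Adm and Iapp, Calca took 98.1%, 87.0%, 96.4%, 98.8% and 99.2% in cancers 1 to 5 and 0% in each control. These shares were high even in cancers 2 and 3, in which the other peptide genes were low as well. In the controls the sum was 9, 6 and 11 FPKM and consisted of Adm and Calcb.

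Of the receptor genes, Calcr split the cancers. Calcr (chr6:3685720-3764713, minus strand) was at 24, 1, 22, 0 and 0 FPKM in cancers 1 to 5 and was listed at 0 in all controls. Cancers 1 and 3 stood apart, and cancers 4 and 5 did not differ from the controls in their listed value. The SD of log2(FPKM + 1) among the cancers was 2.36, at or above that of 99.0% of genes tested. The cancers with the highest Calca, 4 and 5, were those in which Calcr was listed at 0. In cancer 1 both genes were high, and in cancer 3 Calcr was at 22 FPKM with Calca at 27.

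Calcrl, the partner of RAMPs in the CGRP and adrenomedullin receptors, was low throughout. Calcrl (chr2:84330627-84425266, minus strand) was at 4, 2, 3, 3 and 1 FPKM in the cancers and at 2, 2 and 1 in the controls. The groups overlapped, and the difference of 0.39 ± 0.31 on the log2(FPKM + 1) scale changed sign to -0.038 after quantile normalization. Calcrl was 14.3% of the sum of both receptors in cancer 1 and 12.0% in cancer 3, 66.7% in cancer 2, and 100% in cancers 4 and 5 and in every control. Those sums were 28, 3, 25, 3 and 1 FPKM in the cancers, against 2, 2 and 1 in the controls, so the 100% shares rest on 1 to 3 FPKM.

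All RAMP genes had a higher mean in the cancers, in different patterns. Ramp1 (chr1:91179822-91225196, plus strand), the CGRP receptor component, was at 6, 4, 7, 6 and 7 FPKM in the cancers and at 1, 1 and 1 in the controls. The groups did not overlap, and the cancers varied little, with an SD of 0.28 on the log2 scale that was at or above that of 29.1% of genes tested. The difference was 1.79 ± 0.18 on the log2(FPKM + 1) scale. With rounding taken at its widest, the lowest cancer was still 2.33 times the highest control.

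Ramp2 (chr11:101246334-101248250, plus strand), which turns Calcrl into an adrenomedullin receptor, was at 19, 20, 13, 9 and 2 FPKM in the cancers and at 2, 4 and 2 in the controls. Cancers 1 to 4 were above all controls and cancer 5 was within their range. The difference was 1.66 ± 0.63 on the log2(FPKM + 1) scale, and the SD among the cancers, 1.15, was at or above that of 94.0% of genes tested. Ramp3 (chr11:6650148-6677475, plus strand) was at 3, 3, 3, 7 and 3 FPKM in the cancers and at 1, 1 and 1 in the controls. The groups did not overlap, cancer 4 was the highest, and the difference was 1.20 ± 0.26 on the log2(FPKM + 1) scale. Rounding allows the lowest cancer to be 1.67 times the highest control. The locus given for Ramp3 spans 27328 bases and overlaps 1 other GENCODE gene, which is not a coding one. The RefSeq gene spans 18973 bases, and the effect of this on the values was not tested. The differences of Ramp1, Ramp2 and Ramp3 were positive with TPM and with quantile normalization too.

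The makeup of the RAMP signal varied between cancers. The summed FPKM of the RAMP genes was 28, 27, 23, 22 and 12 in cancers 1 to 5 and 4, 6 and 4 in the controls, with no overlap. Ramp2 took 67.9%, 74.1%, 56.5%, 40.9% and 16.7% of the sum in the cancers, against 50%, 66.7% and 50% in the controls. It was the major RAMP in cancers 1 to 4 and the least in cancer 5, and its mean share in the cancers was 51.2% ± 23.1 (SD, n = 5). Ramp1 took 21.4%, 14.8%, 30.4%, 27.3% and 58.3% in the cancers, against 25%, 16.7% and 25% in the controls. Cancer 5, with the highest Calca, was the sample with the largest Ramp1 share. Ramp3 took 10.7% to 31.8% in the cancers, the most in cancer 4, and 16.7% to 25% in the controls. A share within a sample does not depend on scaling between samples, but shares in the controls rest on sums of 4 to 6 FPKM.

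**Figure D2:**
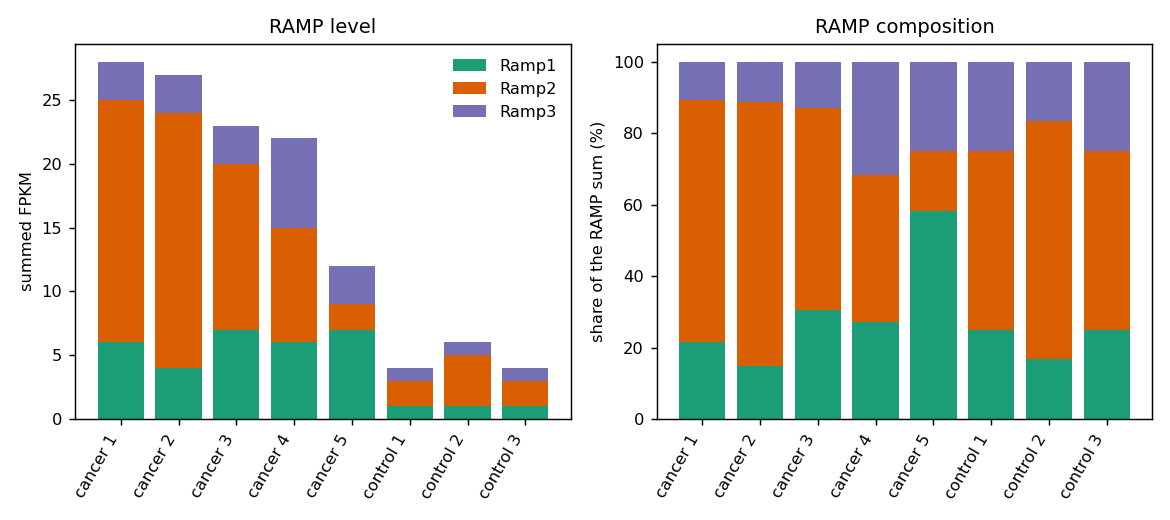
Stacked bars show the FPKM of Ramp1, Ramp2 and Ramp3 in each sample (left) and their shares of the sum in percent (right). The sum lies between 12 and 28 FPKM in the cancers and between 4 and 6 in the controls, and the Ramp2 share in the cancers runs from 74.1% in cancer 2 to 16.7% in cancer 5.

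Ramp2 and Calcrl are known from endothelium, where adrenomedullin signals. The summed FPKM of 10 blood endothelium markers was 95, 62, 75, 64 and 30 in cancers 1 to 5 and 17, 24 and 22 in the controls. Every cancer was above every control, and 6 of the 10 markers rose past the limma threshold, 0 fell and none was listed at 0 in all samples. The count of markers that rose was 2 without control 1 or control 3, and 9 with TPM. Of the 6, 1 was listed at 0 in all controls. Esam, a junction protein of vessels, was at 22, 16, 21, 17 and 10 FPKM in the cancers and at 3, 5 and 7 in the controls. Pecam1, which encodes CD31, was at 20, 10, 10, 8 and 8 FPKM in the cancers and at 2, 5 and 3 in the controls. Cancer 5 had the lowest marker sum of the cancers and the lowest Ramp2 and Calcrl. Ramp1 was at 7 FPKM in that cancer, as high as in any. Of 5 lymphatic endothelium markers 2 rose (1 without any 1 control, 4 with TPM), with sums of 15 to 77 FPKM in the cancers and 6 to 10 in the controls. The part of endothelial cells in the RAMP and Calcrl values was not tested.

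**Figure D3:**
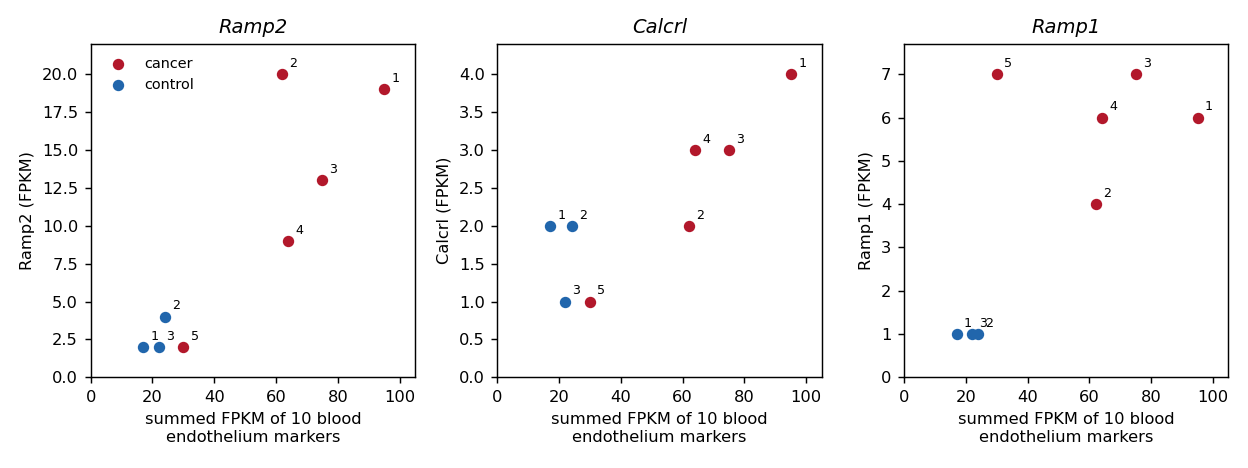
Each panel plots the FPKM of Ramp2, Calcrl or Ramp1 (vertical axis) against the summed FPKM of 10 blood endothelium markers (horizontal axis) in the 5 cancers (red) and 3 controls (blue), numbered by replicate. Cancer 5, with a marker sum of 30 FPKM, has the lowest Ramp2 (2 FPKM) and Calcrl (1 FPKM) of the cancers but 7 FPKM of Ramp1.

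The profile of each gene with a mean of at least 5 FPKM (4 of the 9) was set against those of 9138 genes at that level. The measure was the root mean square difference of log2(FPKM + 1) over the 8 samples after the mean of each gene was removed, so 0 would be an identical profile. The profiles nearest to Calca were Nptx2 (1.50), Scg5 (1.57) and Vgf (1.62), none of them close. Nptx2, a secreted pentraxin of neurons, was at 93, 36, 88, 210 and 355 FPKM in the cancers and at 1, 0 and 1 in the controls. Scg5, a chaperone of the prohormone convertase PCSK2, was at 1156, 509, 812, 994 and 2325 FPKM and 9, 6 and 6. Like Calca, both were lowest in cancer 2 and highest in cancer 5. Vgf, a granule peptide precursor, was at 237, 116, 128, 220 and 240 FPKM in the cancers and listed at 0 in all controls.

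The profile of Calcr was nearest to those of Tff3 (0.64), Dpp4 (0.70) and Npy (0.72). Tff3, a trefoil peptide of intestinal goblet cells, was at 47, 10, 51, 4 and 1 FPKM in the cancers and at 3, 1 and 4 in the controls. Npy, which encodes neuropeptide Y, was at 193, 7, 37, 3 and 1 FPKM in the cancers and at 1, 1 and 3 in the controls. These genes had their highest values in cancers 1 and 3, as Calcr did. The profile of Ramp2 was nearest to Sparc (0.32), a matrix protein gene, Vim (0.33), the intermediate filament gene vimentin, and Eng (0.39), the endothelial receptor endoglin. Eng was at 14, 9, 11, 10 and 2 FPKM in the cancers and at 1, 2 and 2 in the controls. Adm was nearest to Pdgfa (0.48), a growth factor gene, Nedd9 (0.51) and Nfkb2 (0.51). Pdgfa was at 27, 13, 15, 24 and 45 FPKM in the cancers and at 22, 24 and 27 in the controls.

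**Figure D4:**
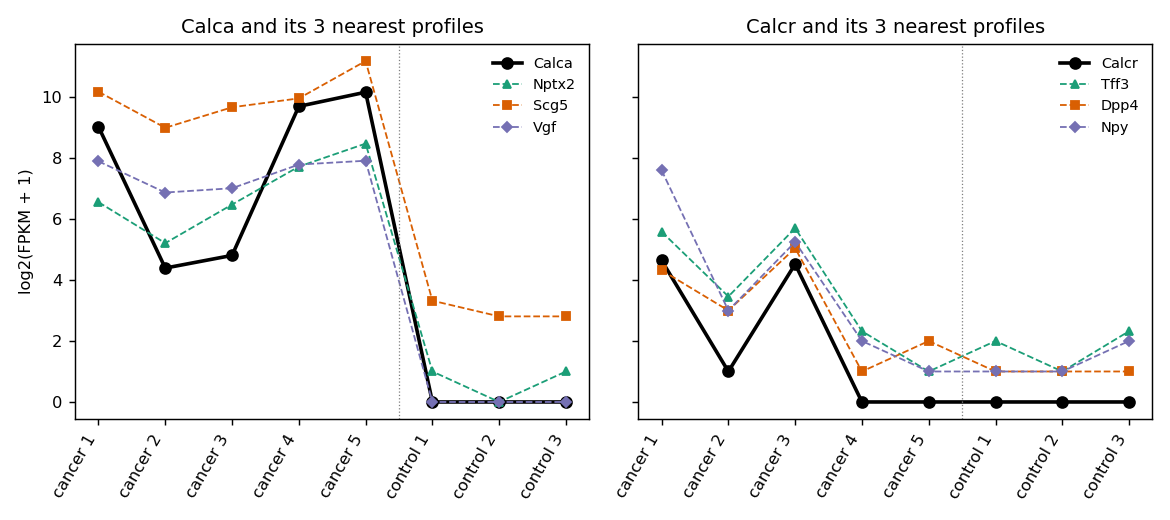
Lines join log2(FPKM + 1) (vertical axis) in cancers 1 to 5 and controls 1 to 3 (horizontal axis, separated by a dotted line) for Calca (left) and Calcr (right) in black and for the 3 genes with the nearest profile to each in colour. Calca runs from 20 FPKM in cancer 2 to 1144 in cancer 5, with Scg5 above it in every sample, and Calcr is high in cancers 1 and 3 (24 and 22 FPKM) only.

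The other genes of the system were taken from 6 lists with 71 genes, of which 60 could be tested. Of these, 31 passed the limma threshold, with 21 higher and 10 lower. Among all genes tested 34.5% passed, 16.2% higher and 18.3% lower, and the median difference of all genes was -0.038. The direction depends on scaling, since 37 of the 60 passed with TPM, 35 higher and 2 lower. It also rests on few controls: 18 passed without control 1 (13 higher and 5 lower), 17 without control 2 (15 and 2) and 19 without control 3 (17 and 2). The lists were chosen with earlier results of these samples known, so their counts are a description.

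Peptide hormones are cut from precursors and amidated in secretory granules, and the granule enzymes rose. Of 8 genes of processing, amidation and breakdown, 7 were tested, 4 rose, 1 fell and the median difference was 3.26 on the log2(FPKM + 1) scale. Pcsk1, a prohormone convertase, was at 475, 171, 566, 310 and 707 FPKM in the cancers and at 2, 3 and 1 in the controls (7.12 ± 0.47, limma adjusted p = 0.00036). Pcsk2, the second granule convertase, was at 158, 182, 96, 169 and 280 FPKM in the cancers and 1 in each control (6.39 ± 0.30, limma adjusted p = 0.00013). Cpe, the carboxypeptidase that trims the cut peptides, was at 4082, 1688, 4895, 2039 and 6183 FPKM and 57, 66 and 57 (5.79 ± 0.46, limma adjusted p = 6e-04). Pam, the amidating enzyme that calcitonin, CGRP, adrenomedullin and amylin all require, was at 425, 137, 394, 185 and 446 FPKM in the cancers and at 30, 30 and 27 in the controls (3.26 ± 0.42, limma adjusted p = 0.0023). In all 4 genes the groups did not overlap. Cancer 3, with 27 FPKM of Calca, had more Pcsk1 and Cpe than cancers 1 and 4.

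Of the enzymes of peptide breakdown, Ide passed the test. Ide, which degrades amylin and insulin, was lower in every cancer (7, 11, 18, 30 and 29 FPKM) than in any control (56, 86 and 71 FPKM; -2.01 ± 0.47, limma adjusted p = 0.016), a call lost with TPM and without control 2 or control 3 (adjusted p = 0.069, 0.064 and 0.056). Ece1, an endothelin-converting enzyme that also cuts CGRP, was at 42, 21, 37, 21 and 40 FPKM in the cancers and at 15, 17 and 22 in the controls (0.76 ± 0.29, limma adjusted p = 0.074). Dpp4, a dipeptidyl peptidase, was at 19, 7, 32, 1 and 3 FPKM and 1 in each control (2.07 ± 0.87, limma adjusted p = 0.098). Both passed the threshold with TPM (adjusted p = 0.0071 and 0.032) and without cancer 4 (0.045 and 0.033), and Ece1 also after quantile normalization (0.041) and without cancer 2 (0.044). Mme, neprilysin, was listed at 1 FPKM in cancer 1 and 0 elsewhere and was not tested.

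Among 5 other family members and accessory proteins, 1 rose, 1 fell (1 call in all without any 1 control) and the median difference was -0.014. Adm2, the gene of intermedin, was at 1, 2, 0, 1 and 4 FPKM in the cancers and at 1, 1 and 2 in the controls (-0.014 on the log2 scale, limma adjusted p = 0.99). Crcp, which encodes an accessory protein of the CGRP receptor, was at 11, 14, 13, 16 and 11 FPKM in the cancers and at 18, 13 and 11 in the controls (-0.086, limma adjusted p = 0.75, and 0.84 with adjusted p = 0.0093 with TPM). Cxcr7, a decoy receptor for adrenomedullin, was at 2, 11, 1, 5 and 8 FPKM and 4, 3 and 3 (0.28, limma adjusted p = 0.73). The arrestins, which end receptor signalling, moved in opposite directions. Arrb1 fell from 13, 15 and 19 FPKM to 7, 10, 4, 5 and 6 (-1.21 ± 0.26, limma adjusted p = 0.013), a call lost with TPM and without control 3 (adjusted p = 0.32 and 0.054). Arrb2 rose from 10, 10 and 12 FPKM to 21, 20, 22, 14 and 17 (0.75 ± 0.17, limma adjusted p = 0.014), a call lost without control 1 or control 2 (adjusted p = 0.056 and 0.057).

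Receptors of this family signal through Gs, adenylyl cyclase and protein kinase A. Of 22 genes of that route 21 were tested, 6 rose, 2 fell and 13 did not pass, with a median difference of 0.50 (0.40 after leaving out the 2 genes that were at 0 in a whole group). With TPM 13 rose and 0 fell, and without control 2 the counts were 6 and 0. Prkar1b, a regulatory subunit of protein kinase A, was at 30, 16, 29, 13 and 29 FPKM in the cancers and 1 in each control (3.53 ± 0.30, limma adjusted p = 0.00078). Crem, a cAMP-responsive transcription factor, was at 32, 12, 24, 17 and 26 FPKM and 3, 3 and 2 (2.60 ± 0.31, limma adjusted p = 0.0016). Pde4b, a cAMP phosphodiesterase, was at 14, 5, 11, 4 and 8 FPKM and 1 in each control (2.11 ± 0.36, limma adjusted p = 0.0056). Gnas, the gene of the Gs alpha subunit, was at 4534, 1773, 1802, 1036 and 1795 FPKM and 476, 473 and 493 (2.01 ± 0.44, limma adjusted p = 0.013, and 0.052 without control 1). Gnas is also known to give neuroendocrine transcripts for another protein, which a gene-level value does not separate.

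RAMPs also bind other receptors, of which 14 were listed and 9 tested. Of those, 4 rose and 1 fell (2 and 0 without any 1 control, 2 and 1 after quantile normalization or without cancer 1), and the median difference of 0.80 became -0.96 when the 4 genes at 0 in a whole group were left out. All genes that rose except Vipr1 were listed at 0 in all controls. They passed the filter on low values only through the cancers, so their calls are a description. Vipr1, a receptor of vasoactive intestinal peptide, was at 38, 6, 18, 12 and 26 FPKM in the cancers and at 1, 2 and 1 in the controls (2.96 ± 0.53, limma adjusted p = 0.0062). Casr, the calcium-sensing receptor, was at 4, 2, 2, 2 and 8 FPKM in the cancers and listed at 0 in all controls (limma adjusted p = 0.0074). Gipr, the receptor of an incretin, was at 5, 3, 18, 2 and 1 FPKM and listed at 0 in all controls (limma adjusted p = 0.033), a call lost after quantile normalization (adjusted p = 0.054), without cancer 1 (0.066) and without any 1 control (0.094 to 0.099). Sctr, the secretin receptor, fell from 25, 16 and 31 FPKM to 0, 6, 0, 6 and 4 (-3.01 ± 0.79, limma adjusted p = 0.024), a call lost without any 1 control (adjusted p = 0.059 to 0.088) and with a pseudocount of 0.1 (0.079). Crhr1, Crhr2, Glp2r and Pth2r were listed at 0 in all samples.

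**Figure D5:**
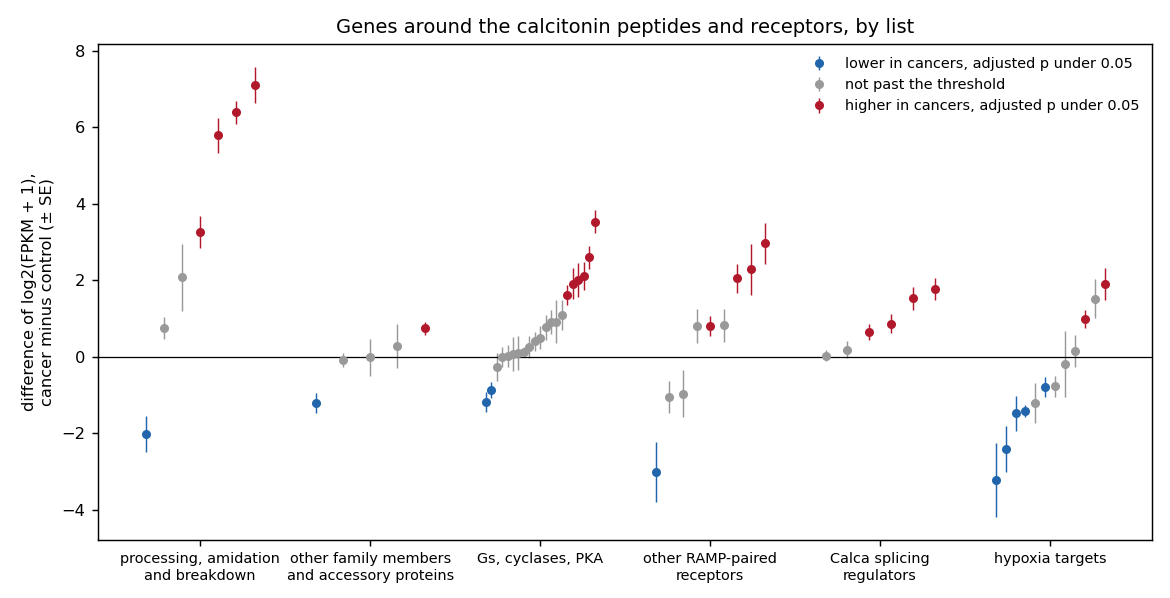
Each point is the difference of log2(FPKM + 1), cancer minus control, of 1 tested gene with its standard error, for the 6 lists along the horizontal axis. Red points are higher and blue points lower in the cancers at an adjusted p under 0.05, and grey points did not pass. Processing and amidation genes reach 7.12 (Pcsk1), and the hypoxia targets hold 5 of the 10 lower genes.

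Of 10 regulators linked to Calca splicing, 6 were tested, 4 rose and 0 fell, and 2 rose without cancer 1, cancer 3 or any 1 control. Elavl4, a neuronal RNA-binding protein known to favour the calcitonin to CGRP switch, was at 2, 1, 3, 3 and 4 FPKM in the cancers and listed at 0 in all controls (limma adjusted p = 0.0044). Elavl4 passed the filter on low values only through the cancers, so its call is a description. Ptbp2, the neuronal polypyrimidine tract-binding protein, was at 7, 5, 11, 9 and 6 FPKM and 2, 3 and 1 (1.53 ± 0.30, limma adjusted p = 0.0086). Rbfox2, which binds the Calca transcript, was at 13, 9, 10, 6 and 13 FPKM and 4, 6 and 5 (0.87 ± 0.26, limma adjusted p = 0.034), and Srsf6, a splicing activator, was at 62, 49, 74, 70 and 45 FPKM and 33, 35 and 45 (0.64 ± 0.21, limma adjusted p = 0.045). Both calls were lost without cancer 1, without cancer 3 and without any 1 control (adjusted p = 0.057 to 0.14), and that of Rbfox2 also without cancer 5 (0.062) and that of Srsf6 without cancer 4 (0.072). Elavl2, Elavl3, Rbfox1 and Rbfox3 were listed at 0 in all samples.

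The hypoxia targets beside Adm mostly fell or did not pass. Of 12, 2 rose, 5 fell and the median difference was -0.78, while with TPM 3 rose and 1 fell. Without cancer 3 the counts were 2 and 2, without control 1 or control 2 they were 1 and 1, and without control 3 they were 2 and 1. P4ha1, a collagen hydroxylase, was at 30, 8, 25, 17 and 11 FPKM in the cancers and at 4, 4 and 3 in the controls (1.90 ± 0.41, limma adjusted p = 0.012, and 0.05 without control 3). Egln3, an oxygen-sensing hydroxylase, fell from 67, 45 and 71 FPKM to 4, 15, 4, 18 and 25 (-2.41 ± 0.61, limma adjusted p = 0.021), a call lost without any 1 control (adjusted p = 0.053 to 0.078). Car9, a carbonic anhydrase, was at 59, 61 and 75 FPKM in the controls and 0, 14, 3, 23 and 11 in the cancers (-3.22 ± 0.97, limma adjusted p = 0.038). Ldha, lactate dehydrogenase, was at 651, 478 and 563 FPKM in the controls and 109, 304, 117, 393 and 211 in the cancers (-1.48 ± 0.45, limma adjusted p = 0.04). The calls of Car9 and Ldha were lost with TPM (adjusted p = 0.07 and 0.22), without cancer 3 (0.087 and 0.081), without cancer 5 (0.055 and 0.069) and without any 1 control (0.087 to 0.13). Car9 was also lost with a pseudocount of 0.1 (0.10), and Ldha after quantile normalization (0.053) and without cancer 1 (0.064).

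The cell types known to make these peptides were checked by their markers. All 9 neuroendocrine markers rose past the limma threshold, 2 of them from a listed 0 in all controls. The 9 summed to 15447, 8080, 17988, 15336 and 16547 FPKM in the cancers and to 126, 190 and 160 in the controls. Cancer 3, low in Calca, had the highest sum. Gcg, the glucagon gene, was at 8250, 17443, 8054, 89 and 36 FPKM in the cancers and at 3, 48 and 4 in the controls (7.04 ± 2.31, limma adjusted p = 0.048), a call lost without cancer 1, 2 or 3, without any 1 control, with a pseudocount of 0.1 and with no filter on low values. Gcg was lowest in cancers 4 and 5, in which Calca was highest. The relation of Gcg and of the neuroendocrine markers to Calca was not tested.

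Markers of other sources of these peptides, and of other cells of the tissue, are given as values. The thyroid genes Tg, Tshr and Pax8 were listed at 0 in all samples, and the iodide transporter Slc5a5, also a thyroid marker, was at 0, 50, 5, 43 and 4 FPKM in the cancers and at 127, 77 and 124 in the controls. Enteric and sensory neuron markers, of which 1 of 4 tested rose (Ret), summed to 15 to 43 FPKM in the cancers and 4 to 7 in the controls, and Chat and Scn10a were listed at 0 in all samples. Of the islet markers other than Gcg, Pdx1, a transcription factor of islet and duodenum, was at 8, 14, 0, 0 and 0 FPKM in the cancers and at 1, 1 and 0 in the controls (limma adjusted p = 0.60), and Ins2 was at 1 FPKM at most. Hepatocyte markers summed to 25, 18, 58, 1 and 466 FPKM in the cancers and 1 in each control, and the 1 tested did not pass (it did with TPM, with a replicate block and without cancer 4). Smooth muscle markers summed to 48 to 1722 FPKM in the cancers and 365 to 561 in the controls, and 0 of 8 passed. Of 9 gastric gland markers 7 were lower in every cancer than in any control, with a median difference of -4.71 on the log2 scale, and 1 passed the test. The gland count was 0 without any 1 control, without cancer 3 or 5, after quantile normalization and with a replicate block. It was 3 or 4 without cancer 1, 2 or 4. Of 7 squamous markers 4 were lower in every cancer, with a median of -4.72, and 2 passed (Krt4 and Lor). The squamous count was 0 without any 1 control and with a replicate block. It was 1 without cancer 1, 2 or 3, with TPM, after quantile normalization and with a pseudocount of 0.1. The basal squamous markers Krt5, Krt14 and Trp63 were above every control in cancer 4 (574, 403 and 21 FPKM, against control maxima of 203, 143 and 11) and did not pass. The squamous sums were 2 to 3067 FPKM in the cancers and 3980 to 6250 in the controls. The part of these cell types in the values of the 9 genes was not tested.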

How the data were processed

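RNA sequencing was analysed from 5 SCJ cancers and 3 control SCJ samples, grouped by their labels. Per the labels, total RNA was used for directional polyA+ libraries. Reads were trimmed with cutadapt v1.8 and aligned with TopHat2 v2.0.13 per the submitters' processing notes, and FPKM on mm10 came from cuffquant and cuffnorm v2.2.1. The normalization option of cuffnorm is not given in the sources used here. The authors deposited rounded FPKM, and since 100% of values were whole these were handled as a score and never as read counts. Depth is unknown, so no counting interval is given. How samples were scaled to each other is therefore unknown.

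Of 23361 genes, the 14357 that reached 1 FPKM in 3 or more samples were tested. The test was limma 3.58.1 (R 4.3.3, trended eBayes) on log2(FPKM + 1), and p-values were adjusted by Benjamini-Hochberg and called under 0.05. Fold changes on this scale understate those of low genes. For the 9 genes the coefficient and SE came from the same model fitted to all genes above 0. The fit was run on simulated data with a capped spread and large shifts placed in genes above the lowest levels. That check cannot show how the fit behaves at the wider spread and low values of these samples. Loci in the table were converted to 1-based starts, and transcripts came from GENCODE M21. The members and lists were chosen with earlier results of these data known. Named genes were the 9 members, all genes of the processing list and of the family list, up to 4 called genes of largest change from each other pathway list, up to 3 of the highest or those listed at 0 in all samples from each marker list, and the 3 nearest profiles of members with a mean of at least 5 FPKM. Krt4, Krt5, Krt14, Trp63, Flt4, Pgc, Rpl26, Trp53, Rb1 and the neighbours of Calca were named after their values were seen. Alternatives were a pseudocount of 0.1, filters, TPM, quantile normalization, eBayes without trend, a replicate block and leaving out each sample, and for the marker lists these were added after seeing the data. Protein sequences and separate transcript levels were not analysed here, and single markers of some lists are not reported here.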

Additional observations from a re-analysis of the deposited data

Results flagged for a closer look

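In the 5 cancers, 6 of the 58 sets of values tested held a sample whose gap to its nearest neighbour exceeded 0.71 of the whole range. Chance marks about 1 in 20 sets of continuous values (2.9 of 58), a rate that does not hold for whole-number values with ties, so the number of marks is not compared with it. With 4 tied values, as for Iapp and Ramp3, the gap is 1 whatever the size of the step. Iapp in cancer 2 (gap 1 of the range) was 1 FPKM beside 0 in the other cancers. Ramp3 in cancer 4 (gap 1) was 7 FPKM beside 3 in the others. Ramp1 in cancer 2 (gap 0.716) was 4 FPKM beside 6 or 7. The share of Calca among the peptide genes in cancer 2 (gap 0.772) was 87.0% beside 96.4% to 99.2%. The enteric and sensory neuron markers stood apart in cancer 2 (gap 0.835, highest) and the hepatocyte markers in cancer 5 (gap 0.794, highest).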

How the results depend on the processing

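The number of genes called between cancers and controls was 4948 and became 7704 with TPM (7176 higher and 528 lower, 93.1% higher compared with 47.0%), 1534 with a replicate block, and 2548 to 5232 when 1 sample was left out (2548, 2700 and 2874 without controls 1, 2 and 3). The 31 called pathway genes became 13 with a replicate block (11 higher and 2 lower), 37 with TPM, and 17 to 33 when 1 sample was left out (18, 17 and 19 without controls 1, 2 and 3). Replicate numbers did not pair the samples: deviations of same-numbered samples correlated at -0.021, -0.19 and -0.10, and 0 of 3 cancers matched best with their own number. With a pseudocount of 0.1 the log2 differences were -2.06 for Calcb, 2.44 for Ramp1 and 1.73 for Ramp3. With TPM they were 1.14 for Calcrl, 2.69 for Ramp1, 2.04 for Ramp3 and, reversed, 0.30 for Adm, as the median of all genes moved to 0.81. Quantile normalization reversed Calcrl (-0.038). The mean FPKM in the cancers was 349.2 to 630.2 for Calca and 5.75 to 11.75 for Calcr when 1 cancer was left out. Among named genes outside the group, the sign turned for Adm2 (0.51 with TPM, -0.30 to 0.28 with 1 sample left out), Crcp (0.84 with TPM, where its limma adjusted p was 0.0093, 0.078 after quantile normalization, -0.23 to 0.098 with 1 sample left out) and Cxcr7 (-0.051 with a replicate block, -0.022 to 0.62 with 1 sample left out). Of the comparisons of the named pathway genes with their alternatives (named marker genes, neighbours of Calca and nearest profiles other than Dpp4 had none of their own), 338 kept direction and side of the threshold, 61 lost a call, 6 gained one and 10 reversed. Beyond what each alternative changes by construction, the cause was not tested. Unknown depth and rounding limit all values of a few FPKM, including Calcb, Calcrl, Ramp1 and Ramp3.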
